A study of Mus musculus with 24 samples.

Results

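The 10 genes described here belong to the circadian clock and to the response to glucocorticoid hormones. They are Per1, Per2, Per3, Cry1, Dbp, Tef, Nr1d1 and Nr1d2 of the clock and Tsc22d3 and Fkbp5 of the hormone response. They were taken by symbol from 55414 genes listed in the UMI-corrected count table, and all 10 were found there. They were chosen by measured values of this series, and which of its contrasts was used is not recorded, so every difference of these 10 genes between groups is given as a description with its standard error and without a p-value. The cells were splenic Tconv CD4+ cells (CD4+ CD25-), isolated by magnetic sorting from conplastic mice that all share the C57BL/6J (B6) nuclear genome and carry the mtDNA of B6 (labelled WT) or of the NZB strain. Cells of each haplotype were resting (labelled RES) or activated (labelled ACT) with CD3/CD28 beads and IL-2 for 72 h, which gave 4 groups of 6 libraries. The study's methods state that most experiments used males of 2 to 3 months kept on a cycle of 13 h of light and 11 h of dark. The hour at which spleens were taken, and whether resting cells were also cultured, are not given in the sources used here. Activation therefore cannot be told apart from time in culture and from time of day.

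The circadian clock is a feedback loop of transcription. BMAL1 with CLOCK binds E-box elements and drives the Per and Cry genes, whose proteins return to the nucleus and repress that drive. The same drive turns on Nr1d1 and Nr1d2, which encode the REV-ERB repressors of Bmal1, and Dbp and Tef, which encode activators that bind D-box elements. Glucocorticoids act through the receptor NR3C1, and they raise Tsc22d3 (the leucine zipper protein GILZ), Fkbp5 (a chaperone partner that restrains the receptor) and Per1, so the hormone is also a time signal for the clock of peripheral cells.

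Because clock and hormone signals reach genes through such elements, these were looked for in the promoters of the 10 genes. The window ran from 250 bases before to 50 bases after the start of each gene's canonical transcript in the GRCm39 build, and both strands were read. The E-box CACGTG was found in 4 of the 10 windows, beside 7.81% of 21770 windows of protein-coding genes. The D-box TTATGNAA was found in 2 of the 10 (3.35% of all) and the ROR/REV-ERB element TAGGTCA in 1 (2.49% of all). The glucocorticoid response element (GNACA and TGTNC set 3 bases apart, 0.381% of all) and the cAMP response element TGACGTCA (2.44% of all) were found in 0 of the 10. Each hit is printed, to show which of the 10 promoters hold an element and in what sequence, as 30 bases of the gene's own strand with the element in capitals. The hits did not overlap one another. A match is a description of the letters and not evidence of binding. The window covers 1 transcript start per gene, so an element absent from it may lie elsewhere in or near the gene.
Per1 E-box, chr11:68989234-68989263, plus strand: accccttaacgaCACGTGggccctcaattg
Cry1 E-box, chr10:85020961-85020990, minus strand: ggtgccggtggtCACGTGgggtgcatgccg
Tef E-box, chr15:81695465-81695494, plus strand: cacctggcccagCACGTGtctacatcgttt
Fkbp5 E-box, chr17:28705275-28705304, minus strand: gcaagggccagaCACGTGggcagcggtgaa
Per2 D-box, chr1:91387153-91387182, minus strand: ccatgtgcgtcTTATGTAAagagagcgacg
Per3 upstream D-box, chr4:151129309-151129338, minus strand: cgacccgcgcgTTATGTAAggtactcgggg
Per3 downstream D-box, chr4:151129262-151129291, minus strand: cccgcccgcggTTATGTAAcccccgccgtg
Dbp ROR/REV-ERB element, chr7:45354312-45354341, plus strand: ttggccaaataTAGGTCAgtgtcccgcctt
Nr1d1, Nr1d2 and Tsc22d3 had none of the 5 elements in this window. The E-box stood at 22 bases before the transcript start in Per1 and at 29, 138 and 140 bases before it in Cry1, Tef and Fkbp5.

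Libraries were made with a bulk form of MARS-seq, which reads the 3′ end of polyadenylated RNA and counts each molecule once by its unique molecular identifier (UMI). They held 2430562 to 5456681 UMI counts with mtDNA B6 and 51409 to 6449395 with mtDNA NZB. The smallest, NZB resting replicate 2, is so shallow that 1 UMI there equals 16.9 CPM (counts scaled to 1e+06 of the TMM-scaled library size), so its values for the 10 genes carry a large counting error. Of the 10 genes, 7 passed the filter on low counts and were fitted with the 10566 genes tested, and Per2, Per3 and Nr1d2 did not pass. Genes of T cell identity summed to group medians of 3803 to 4671 CPM, and Il2ra, which encodes the CD25 chain induced by activation, rose from a mean of 3.00 to 79.8 CPM with mtDNA B6 and from 2.79 to 111 CPM with mtDNA NZB (adjusted p = 3.65e-10 and 4.84e-10, edgeR quasi-likelihood test). The libraries also held RNA of other cells. Summed markers ranged from 644 to 7434 CPM (granulocyte), 817 to 2633 CPM (myeloid) and 192 to 7185 CPM (erythroid) in the B6 resting libraries, against at most 78.8, 79.6 and 163 CPM after activation. With mtDNA NZB they ranged from 406 to 20322, 457 to 2806 and 89.0 to 3632 CPM at rest, against at most 178, 109 and 23.1 CPM. All 8 granulocyte, 5 myeloid and 6 erythroid markers were called lower on activation in both haplotypes, and no such marker was at 0 in every resting library. Activation thus moved with less granulocyte, myeloid and erythroid RNA. Summed CD8 and NK markers instead rose. Their medians went from 76.6 to 279 CPM with mtDNA B6 and from 63.6 to 166 CPM with mtDNA NZB. Platelet medians rose from 6.48 to 123 and from 9.57 to 84.0 CPM. B cell medians were 401 and 502 CPM with mtDNA B6 and 529 and 445 CPM with mtDNA NZB. The part of all these cells in the differences below was not tested. In bulk RNA a change in cells of a type and in RNA per cell cannot be told apart.

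**Figure D1:**
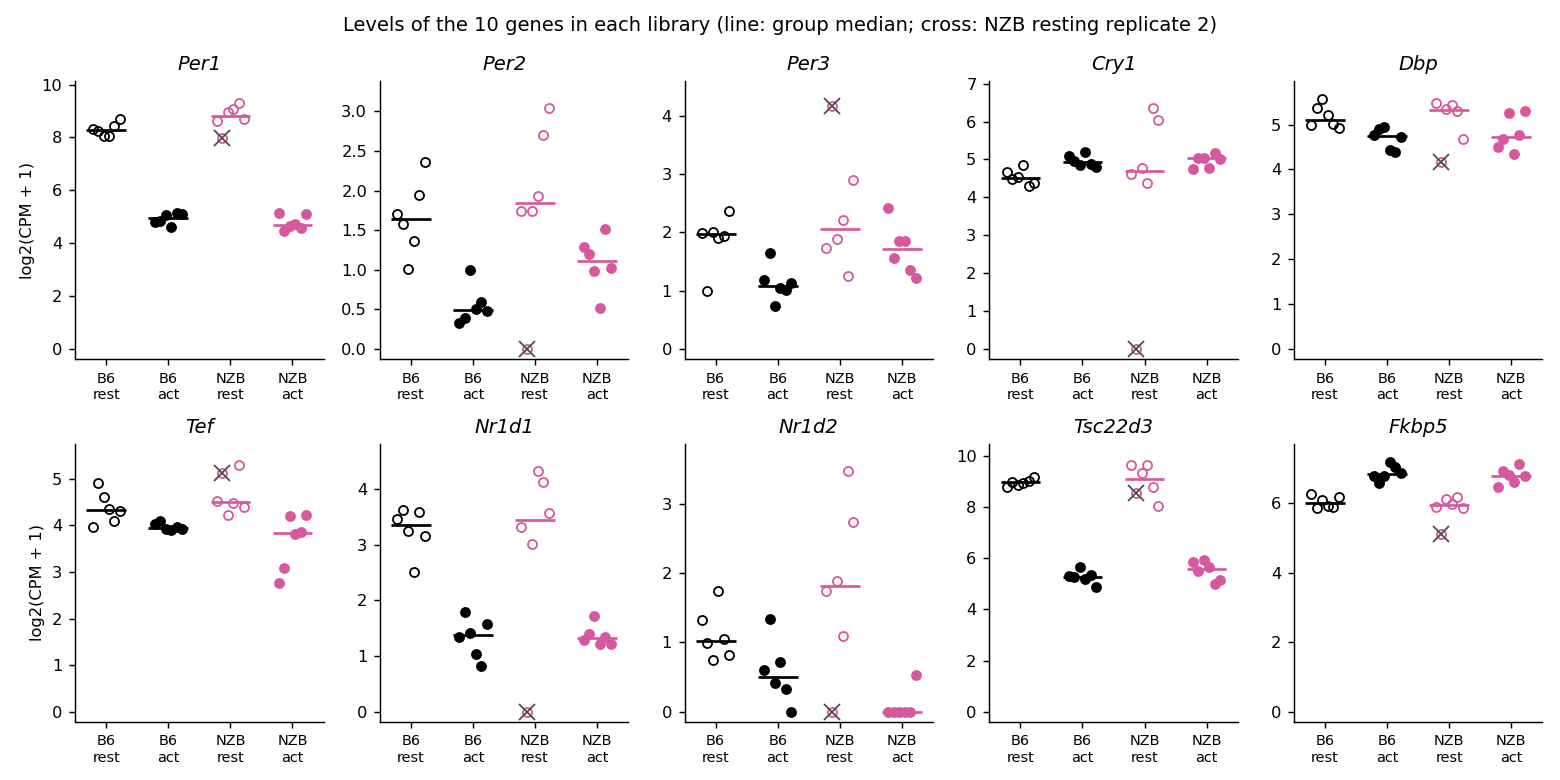
Level of each of the 10 genes in the 24 libraries, as log2(CPM + 1) on the vertical axis, by haplotype and state (open points resting, filled points activated, line at the group median, cross on the smallest library). Per1 and Tsc22d3 separate resting from activated libraries completely in both haplotypes, Fkbp5 separates them in the opposite direction, and Cry1 of 2 NZB resting libraries lies above all others.

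The Per genes encode the repressors that carry the timing of the loop. Per1 (ENSMUSG00000020893, chr11:68986035-69002300, plus strand) was read at 266 to 419 CPM in resting mtDNA B6 cells (median 308) and at 23.5 to 34.0 CPM after activation (median 30.1). NZB libraries held it at 254 to 637 CPM at rest (median 452) and at 20.9 to 34.5 CPM after activation (median 24.8). Every activated library thus lay below every resting library, and the fitted difference was -3.43 log2 (SE 0.17, 10.8-fold lower) with mtDNA B6 and -4.15 log2 (SE 0.18, 17.8-fold lower) with mtDNA NZB, with 6 libraries per group. Over 35 other settings of the analysis the Per1 difference stayed between -3.47 and -3.30 with mtDNA B6 and between -4.39 and -3.99 with mtDNA NZB.

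Per2 (chr1:91343700-91387069, minus strand), a repressor that like Per1 responds quickly to hormone and light signals, was counted rarely. Its 6 B6 resting libraries held 49 UMIs in all (1.01 to 4.14 CPM, median 2.12) and its 6 B6 activated libraries 10 UMIs (0.255 to 0.991 CPM, median 0.410), so the libraries did not overlap. The ratio of the pooled levels was 5.02 (95% counting interval 2.51 to 11.1). With mtDNA NZB there were 54 UMIs at rest and 22 after activation, a ratio of 3.29 (1.97 to 5.68), and the groups overlapped only through the smallest library, which held 0 UMIs of Per2. These intervals cover counting error only and leave out the spread between libraries.

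Per3 (chr4:151081373-151129140, minus strand), the Per gene least needed for the clock to run, showed a smaller ratio. Its libraries held 58 UMIs at rest and 26 after activation with mtDNA B6 (ratio 2.29, 1.42 to 3.79) and 48 and 37 UMIs with mtDNA NZB (ratio 1.74, 1.11 to 2.75). The groups overlapped in both haplotypes. A single UMI in the smallest library gave the highest Per3 value of all 24 libraries, 16.9 CPM.

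Cry1 (chr10:84967560-85021252, minus strand), the long-lived repressor that closes the loop with the PER proteins, did not share the Per1 pattern. In mtDNA B6 cells it was at 18.6 to 27.8 CPM at rest (median 21.7) and at 26.9 to 35.8 CPM after activation (median 29.3), and the groups overlapped. In mtDNA NZB cells it was at 25.9 to 35.0 CPM after activation, within the range of the B6 activated libraries at its upper end and slightly under it at its lower end. The resting NZB libraries fell apart, with 23.7, 26.2 and 19.9 CPM in replicates 1, 3 and 4, but 80.7 and 65.4 CPM in replicates 5 and 6, and 0 UMIs in the smallest library. The fitted activation difference was 0.45 log2 (SE 0.26) with mtDNA B6 and -0.43 log2 (SE 0.27) with mtDNA NZB. Without NZB resting replicates 5 and 6 the NZB value turned to 0.49 log2, close to the B6 value, so its sign rested on those 2 libraries.

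Dbp and Tef encode related activators of D-box genes. Dbp (chr7:45354512-45359627, plus strand) was at 29.3 to 46.2 CPM in B6 resting libraries (median 33.5) and at 19.96 to 29.7 CPM in B6 activated libraries (median 25.8). In mtDNA NZB cells it was at 16.9 to 43.7 CPM at rest (median 39.1) and at 19.2 to 38.6 CPM after activation (median 25.4). The differences were small and the groups overlapped, at -0.51 log2 (SE 0.17) with mtDNA B6 and -0.38 log2 (SE 0.18) with mtDNA NZB. Within the last 1000 exonic bases, the region the reads were counted in, Dbp overlaps Sphk2 on the other strand, and strand in the counting is not named in the sources used here.

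Tef (chr15:81686622-81711064, plus strand) was at 14.7 to 29.1 CPM (median 19.2) in B6 resting and at 14.0 to 16.2 CPM (median 14.4) in B6 activated libraries, which overlapped. Its B6 activated libraries were among the most alike of any member, with a coefficient of variation of 5.72%, against 25.9% at rest. With mtDNA NZB, Tef was at 17.8 to 38.5 CPM at rest (median 21.6) and at 5.75 to 17.6 CPM after activation (median 13.3), which did not overlap. The fitted differences were -0.45 log2 (SE 0.21) and -0.86 log2 (SE 0.23).

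Nr1d1 and Nr1d2 encode the REV-ERB receptors that repress Bmal1. Nr1d1 (chr11:98658752-98666188, minus strand) was at 4.70 to 11.3 CPM in B6 resting libraries (median 9.21) and at 0.768 to 2.45 CPM in B6 activated libraries (median 1.59). With mtDNA NZB it was at 7.05 to 19.0 CPM in 5 resting libraries, at 0 UMIs in the smallest one, and at 1.31 to 2.29 CPM after activation (median 1.49). Apart from that library, every activated library lay below every resting library. The difference was -2.53 log2 (SE 0.31, 5.77-fold lower) with mtDNA B6 and -2.92 log2 (SE 0.32, 7.56-fold lower) with mtDNA NZB. The 3′ end of Nr1d1 overlaps that of Thra on the other strand, so reads of the pair may be shared between them.

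Nr1d2 (chr14:4230545-4266624, plus strand) was again rare. With mtDNA B6 it had 25 UMIs at rest and 12 after activation, a ratio of 2.14 (95% counting interval 1.03 to 4.67), with overlapping libraries. With mtDNA NZB it had 55 UMIs at rest and 3 after activation, all 3 in replicate 6, and 5 activated libraries were at 0 UMIs. That ratio was 24.6 with a wide interval (7.99 to 123). Of the 55 resting UMIs, 22 came from replicate 5 and 14 from replicate 6.

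Tsc22d3 (chrX:139440091-139501408, minus strand), the gene of the anti-inflammatory mediator GILZ, showed a difference on activation of the size seen for Per1. It was at 445 to 574 CPM in B6 resting libraries (median 502) and at 28.5 to 49.9 CPM in B6 activated libraries (median 38.0). The NZB values were 266 to 802 CPM at rest (median 544) and at 31.3 to 60.2 CPM after activation (median 47.2). Groups did not overlap in either haplotype, and the differences were -3.70 log2 (SE 0.23, 13.0-fold lower) and -3.65 log2 (SE 0.23, 12.5-fold lower). B6 resting libraries were alike, at 501 ± 45.1 CPM (SD, n = 6), whereas the NZB resting libraries spread more widely, at 555 ± 227 CPM (SD, n = 6).

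Fkbp5 (chr17:28618058-28737521, minus strand), the other hormone-responsive gene among the 10, went the opposite way. It was at 57.6 to 75.6 CPM in B6 resting libraries (median 63.7) and at 94.2 to 143 CPM in B6 activated libraries (median 113). NZB libraries held it at 33.9 to 71.0 CPM at rest (median 60.2) and at 87.7 to 140 CPM after activation (median 110). All activated libraries exceeded all resting ones, by 0.85 log2 (SE 0.12, 1.80-fold) with mtDNA B6 and 0.84 log2 (SE 0.13, 1.79-fold) with mtDNA NZB. The promoters of Per1 and of Fkbp5 both hold an E-box among the sequences shown, and the former was lower and the latter higher after activation.

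**Figure D2:**
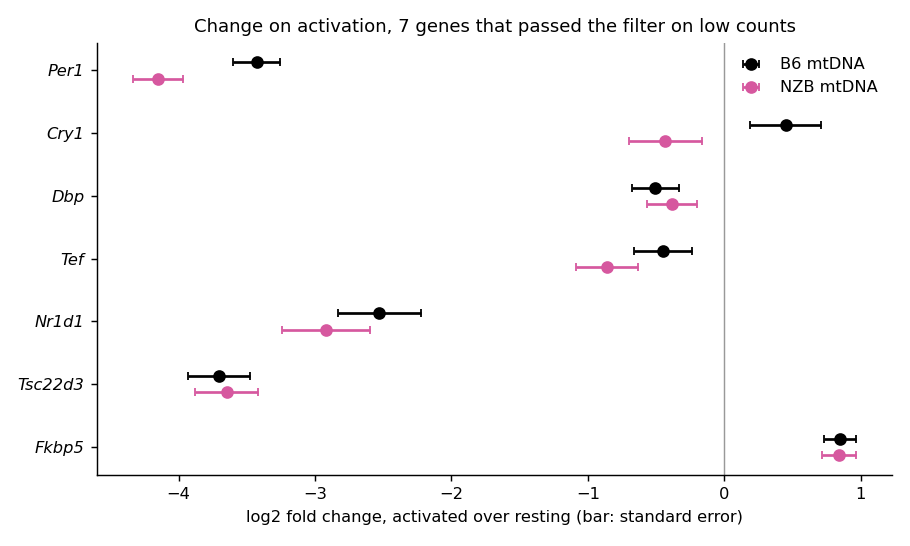
Log2 fold change of activated over resting cells for the 7 genes that passed the filter on low counts, black for mtDNA B6 and pink for mtDNA NZB, with bars of 1 standard error. Per1, Nr1d1 and Tsc22d3 lie far to the left of 0 in both haplotypes, Fkbp5 lies to the right, and Cry1 differs in sign between haplotypes.

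Activation changed much of the transcriptome, and the 10 genes are read against that. Of the 7 fitted, 5 met the call (adjusted p of at most 0.05 in edgeR's quasi-likelihood test) with mtDNA B6, where 46.9% of all genes tested were called. They were 4 lower and 1 higher, beside 24.5% and 22.4% of all genes. With mtDNA NZB 5 of the 7 met it, where 53.5% of all genes tested were called, again 4 lower and 1 higher, beside 28.4% and 25.2% of all. Groups did not overlap for 4 of the 7 with mtDNA B6 (31.8% of all genes tested), 3 lower and 1 higher (16.4% and 15.4% of all). With mtDNA NZB they did not overlap for 4 of the 7 (18.9% of all), 3 lower and 1 higher (6.95% and 11.9% of all). As these contrasts may have chosen the genes, the counts carry no test of the list. Libraries also fell into 3 sets of 8 by reads per UMI (up to 1.96, 2.11 to 2.24 and from 2.68), with 5 of the 6 B6 activated libraries in the lowest set and none of the B6 resting libraries there. The highest set held 4 of the 6 NZB resting libraries, replicates 5 and 6 among them, and 2 of the 6 B6 resting libraries. Haplotype at rest is thus partly mixed with the set. With the set as a term, the activation differences were -3.44 and -4.08 log2 for Per1, -3.53 and -3.64 log2 for Tsc22d3, 0.77 and 0.81 log2 for Fkbp5 and -0.74 and -0.46 log2 for Dbp, with mtDNA B6 and NZB in that order.

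Other genes of the clock were examined as a list of 19, of which 12 passed the filter. This list and those of the receptor's partners and of other hormone-responsive genes were drawn up with earlier results of these data known. Their shares and medians therefore carry no test of the lists. With mtDNA B6, 6 of the 12 changed on activation (50%, near the 46.9% of all genes tested), 5 lower and 1 higher, with a median of -0.25 log2 beside -0.03 log2 over all genes tested. With mtDNA NZB, 10 of the 12 changed (83.3%, beside 53.5% of all), 8 lower and 2 higher, with a median of -1.43 log2 beside -0.06 log2. That share leaned on NZB resting replicates 5 and 6. Without them 8 of 13 changed with mtDNA NZB, 6 lower and 2 higher, beside 5464 of all 10924 genes tested. Ciart, a repressor of BMAL1 with CLOCK, fell by 3.01 log2 (SE 0.30, edgeR adjusted p = 1.37e-08) with mtDNA B6, from 20.4 to 39.7 CPM at rest to 1.02 to 4.96 CPM after activation. With mtDNA NZB it fell by 3.43 log2 (SE 0.32, adjusted p = 4.21e-09). Usp2, a deubiquitinase under clock control, fell by 1.58 log2 (adjusted p = 0.000786) and by 3.08 log2 (adjusted p = 3.71e-07).

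Among the core components, Bmal1, the activator at the head of the loop, fell by 0.77 log2 (SE 0.17, edgeR adjusted p = 0.000687) with mtDNA B6 and by 1.40 log2 (SE 0.18, adjusted p = 7.81e-07) with mtDNA NZB. Cry2, the partner repressor of Cry1, fell by 0.92 log2 (adjusted p = 0.000472) and by 1.57 log2 (adjusted p = 1.05e-06). Clock was at 0 to 1.19 CPM in all groups and did not pass the filter. Rora, an activator of Bmal1, differed by -0.29 log2 (adjusted p = 0.515) with mtDNA B6 and fell by 2.09 log2 (adjusted p = 5.14e-05) with mtDNA NZB. Wee1, a kinase gene that brakes entry into mitosis and is under clock control, rose by 1.31 log2 (adjusted p = 0.00344) and 1.37 log2 (adjusted p = 0.0045). Without NZB resting replicates 5 and 6, the NZB falls of Rora and Usp2 came to 1.04 and 2.12 log2 (adjusted p = 0.00587 and 6.39e-06) and the rise of Wee1 to 2.33 log2 (adjusted p = 4.51e-05). In that edgeR fit the NZB differences of Bmal1 and Cry2 were -0.99 and -1.23 log2 (adjusted p = 1.54e-05 and 1.15e-05).

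The receptor and its partners formed a list of 14, of which 12 were tested. On activation 6 of the 12 changed with mtDNA B6 (5 lower, 1 higher, median -0.30 log2) and 7 with mtDNA NZB (6 lower, 1 higher, median -0.48 log2). These shares, 50% and 58.3%, were near the 46.9% and 53.5% of all genes tested, whose medians were -0.03 and -0.06 log2. The receptor gene Nr3c1 was at 96.5 to 117 CPM at rest and 89.4 to 99.4 CPM after activation with mtDNA B6, a difference of -0.21 log2 (SE 0.14, edgeR adjusted p = 0.223). With mtDNA NZB it was at 121 to 234 CPM at rest and 74.9 to 113 CPM after activation, and fell by 0.77 log2 (SE 0.14, adjusted p = 7.19e-05). Hsd11b1, which regenerates active hormone inside cells, fell by 0.99 and 0.71 log2 (adjusted p = 0.00012 and 0.00361). Stip1, a co-chaperone of the receptor, rose by 0.60 and 0.86 log2 (adjusted p = 0.00221 and 6.98e-05). Hsp90aa1, the inducible form of its chaperone, fell by 1.40 and 1.09 log2 (adjusted p = 0.00401 and 0.0216), but the NZB value was 0.092 log2 (adjusted p = 0.841) without NZB resting replicates 5 and 6.

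Other genes known to respond to glucocorticoids formed a list of 19, of which 17 were tested. On activation 15 of the 17 changed with mtDNA B6, 14 lower and 1 higher, with a median of -1.96 log2. That was 88.2%, beside 46.9% of all genes tested (24.5% lower) and their median of -0.03 log2. With mtDNA NZB 13 changed, all 13 lower, with a median of -1.90 log2, which was 76.5% beside 53.5% of all (28.4% lower) and a median of -0.06 log2. As earlier results were known when the list was drawn up, these shares describe it and do not test it. Dusp1, a phosphatase that switches off MAP kinases, fell from 1244 to 1571 CPM in B6 resting libraries to 9.90 to 33.5 CPM after activation (-6.36 log2, SE 0.47, edgeR adjusted p = 6.38e-11), and fell by 5.30 log2 (SE 0.45, adjusted p = 8.39e-10) with mtDNA NZB. Rgs2, a brake on G protein signals, fell by 5.33 and 4.64 log2 (adjusted p = 9.02e-13 and 1.14e-11). Cebpd, a transcription factor gene also used by myeloid cells, fell by 5.59 and 3.91 log2 (adjusted p = 1.18e-06 and 0.000124). Bcl2l11, which encodes the death-promoting protein BIM, rose by 1.18 log2 with mtDNA B6 (adjusted p = 0.00115) and differed by -0.12 log2 with mtDNA NZB (adjusted p = 0.75), where it was 0.81 log2 higher (adjusted p = 0.0047) without NZB resting replicates 5 and 6. Several of these genes also respond to other signals, and myeloid and granulocyte cells express some of them, as given with the marker sums above.

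**Figure D3:**
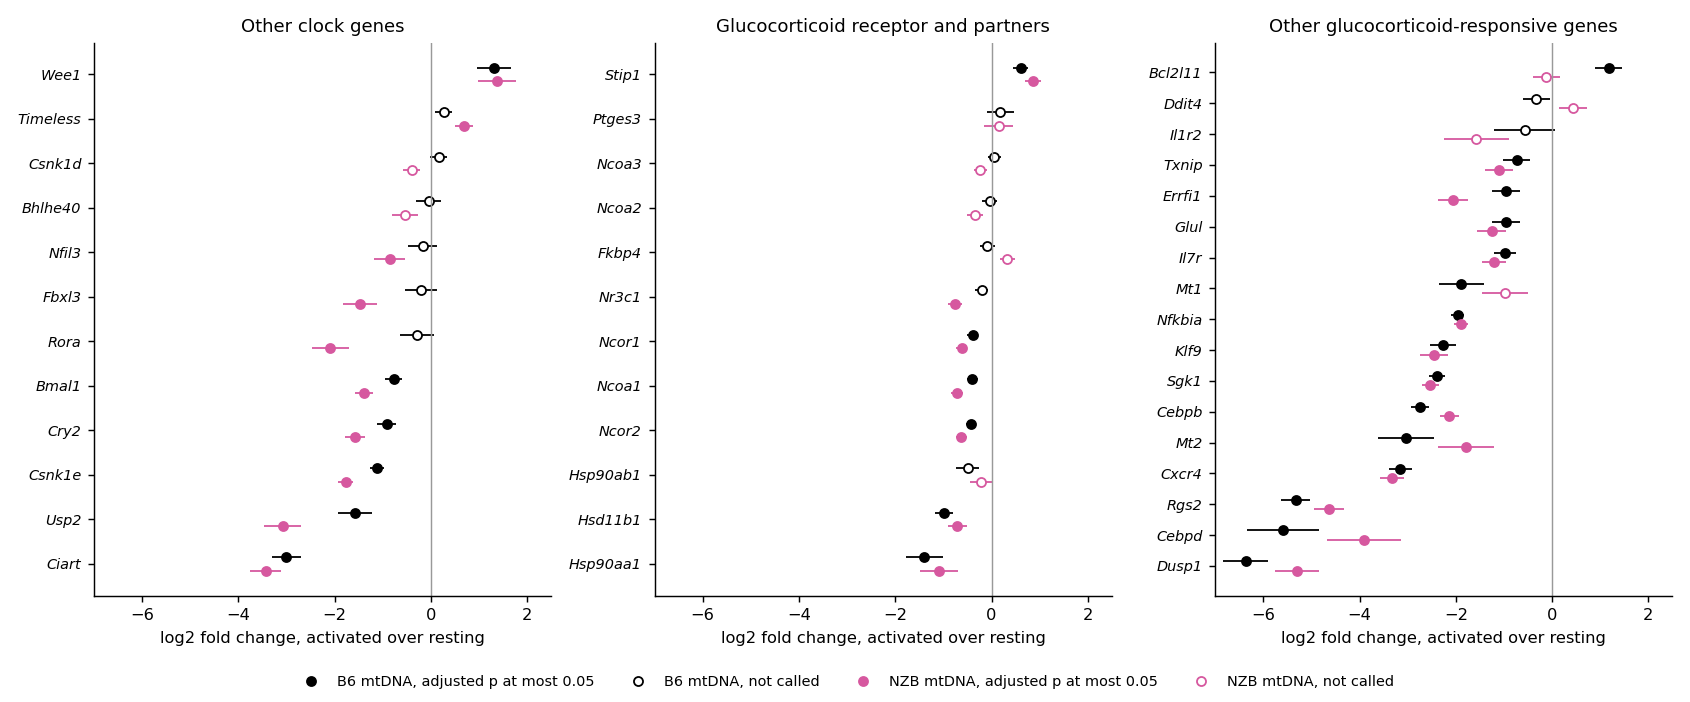
Log2 fold change of activated over resting cells, with bars of 1 standard error, for the tested genes of 3 lists, black for mtDNA B6 and pink for mtDNA NZB (filled points met an adjusted p of at most 0.05). In the list of other glucocorticoid-responsive genes 14 of 17 were called lower with mtDNA B6 and 13 of 17 with mtDNA NZB, with Dusp1, Cebpd and Rgs2 farthest from 0.

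At rest, the fitted differences between the mtDNA haplotypes ran from -0.06 log2 (Fkbp5) to 0.90 log2 (Cry1) over the 7 genes fitted. None of the 7 fitted met the call between haplotypes in edgeR or in DESeq2. In edgeR 2.76% of all genes tested did (201 higher and 91 lower with mtDNA NZB). Of the 10566 genes tested, 2196 were at an unadjusted p under 0.05 in edgeR. As this contrast may have chosen the 10 genes, the counts of members called carry no test of them. The count of members called was 2 without NZB resting replicate 1 or 2, where 572 of 10709 and 390 of 10702 genes were called. It was 1 without NZB resting replicate 3, 4 or 6, where 587 of 10708, 478 of 10692 and 527 of 10676 genes were. The count was 1 without B6 resting replicate 6 or NZB activated replicate 6, where 175 of 10682 and 291 of 10721 genes were called. It was also 1 with a mean of at least 10 CPM asked for in a group, where 355 of 8446 genes were called. Without NZB resting replicates 2 and 6 and NZB activated replicate 6 together it was 1, where 662 of 10826 genes were called. With 1 library left out, the call over all genes moved as well, between 0 and 587 genes. No member's libraries separated the haplotypes (1.14% of all genes did). Per1 was 0.56 log2 higher with mtDNA NZB (SE 0.16, 1.47-fold), and 3 of the 6 NZB libraries, at 494, 539 and 637 CPM, exceeded the highest B6 library at 419 CPM. Dbp, Tef, Nr1d1, Tsc22d3 and Fkbp5 differed by 0.07 (SE 0.18), 0.25 (SE 0.22), 0.45 (SE 0.26), 0.18 (SE 0.20) and -0.06 log2 (SE 0.13).

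Cry1 showed the largest fitted difference at rest of the 7, at 0.90 log2 higher with mtDNA NZB (SE 0.27, 1.86-fold), and this came from 2 libraries. NZB resting replicates 5 and 6 lay on the same side of all B6 resting libraries and of NZB resting replicates 1, 3 and 4 for Cry1, Per2 and Nr1d2, which were higher in them, and for Tsc22d3, which was lower. Per2 was at 5.50 and 7.23 CPM there, against at most 4.14 CPM in the 9 others. Nr1d2 was at 10.1 and 5.62 CPM, against 1.12 to 2.69 CPM and up to 2.35 CPM. Tsc22d3 was at 443 and 266 CPM, against 646 to 802 CPM and at least 445 CPM.

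Those 2 libraries stood apart across the transcriptome and not in the clock genes alone, since 35.1% of all genes tested (18.0% above, 17.1% below) set them on the same side of the same 9 libraries. Among the 19 other clock genes 9 lay above and 1 below, with Rora at 74.2 and 51.8 CPM against at most 21.5 CPM. Among the 19 other hormone-responsive genes 4 lay above and 2 below, and among the 14 of the receptor and its partners 1 above and 0 below. Unlike the share of all genes tested, these counts include genes that did not pass the filter, so the 2 are not on the same footing. Of these lists 12, 17 and 12 genes passed it. Dusp1 was at 352 and 197 CPM in them, against 1318 to 1577 CPM in replicates 1, 3 and 4, whereas Txnip, a thioredoxin inhibitor gene, was at 1461 and 859 CPM, against 334 to 597 CPM. The pair was not alike in granulocyte RNA, with summed markers of 406 CPM in replicate 5, the lowest of the NZB resting libraries, and 20322 CPM in replicate 6, the highest. Without both libraries Cry1 differed by 0.01 log2 between haplotypes at rest, Tef by 0.02, Tsc22d3 by 0.44 and Per1 by 0.46 log2.

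**Figure D4:**
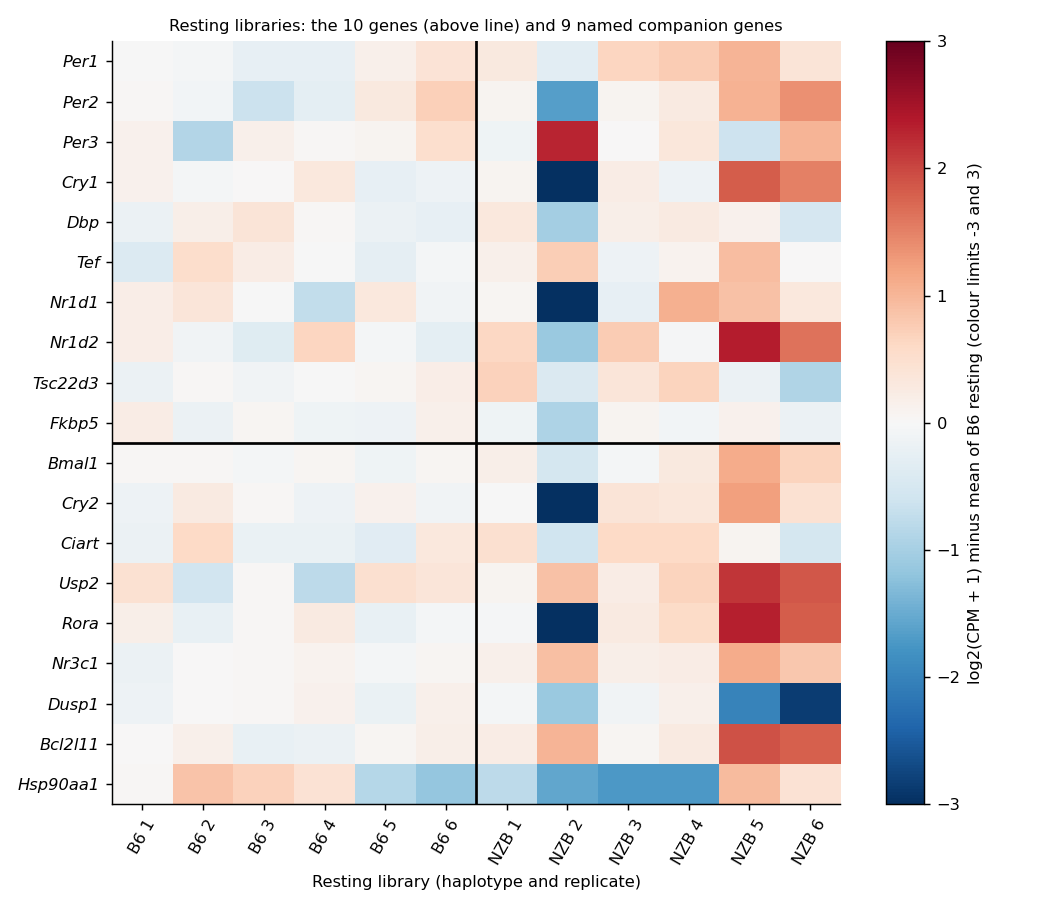
Resting libraries of both haplotypes (columns) for the 10 genes above the line and 9 named companion genes below it, coloured by log2(CPM + 1) minus the mean of the 6 B6 resting libraries, with colours cut at -3 and 3. NZB replicates 5 and 6 are red for Cry1, Nr1d2, Usp2, Rora and Bcl2l11 and blue for Dusp1, and the smallest library, NZB replicate 2, shows extreme colours from counts of 0 or 1 UMI.

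Of the companion genes, 4 of 41 tested were called at rest (9.76%, beside 2.76% of all genes tested), all higher with mtDNA NZB. Nr3c1, the receptor, was 0.57 log2 higher (SE 0.14, edgeR adjusted p = 0.0367), and its 6 NZB libraries, at 121 to 234 CPM, lay above the 6 B6 libraries, at 96.5 to 117 CPM. Rora was 1.27 log2 higher (SE 0.35, adjusted p = 0.0486), Usp2 1.20 log2 (SE 0.33, adjusted p = 0.046) and Bcl2l11 1.09 log2 (SE 0.29, adjusted p = 0.0426), each with overlapping libraries. Without NZB resting replicates 5 and 6 these 4 came to 0.22, 0.25, 0.26 and 0.20 log2 (adjusted p = 0.415, 0.778, 0.763 and 0.78). In their place 3 of 43 companions were called, all lower with mtDNA NZB, as were 116 of the 123 genes called among all 10924 tested. These 3 encode chaperones or a co-chaperone of the receptor, and Hsp90ab1 and Fkbp4 were named after their values were seen. They were Hsp90aa1 at -1.56 log2 (adjusted p = 0.0221), Hsp90ab1 at -0.80 log2 (adjusted p = 0.0409) and Fkbp4 at -0.65 log2 (adjusted p = 0.0223), against -0.42, -0.27 and -0.29 log2 with all libraries (adjusted p = 0.576, 0.559 and 0.295). None of the first 4 was called with the set of reads per UMI as a term, with the second count table or with the 2 resting groups fitted alone. Bmal1 and Cry2 were 0.49 and 0.52 log2 higher but were not called (adjusted p = 0.106 and 0.133).

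After activation, Per1, Cry1, Tef and Nr1d1 differed less between haplotypes than at rest, and Dbp, Tsc22d3 and Fkbp5 slightly more, with no test of that change beyond the response difference given last. The 7 fitted genes differed between haplotypes by -0.17 (Per1, SE 0.17), 0.02 (Cry1, SE 0.26), 0.19 (Dbp, SE 0.18), -0.16 (Tef, SE 0.22), 0.06 (Nr1d1, SE 0.37), 0.24 (Tsc22d3, SE 0.22) and -0.07 log2 (Fkbp5, SE 0.12). None of the 7 and none of the 41 companion genes met the call, and 0 of the companion genes were at an unadjusted p under 0.05. Over all genes tested edgeR and DESeq2 also called 0, and 327 were at an unadjusted p under 0.05 in edgeR.

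The difference between the haplotypes' responses to activation was fitted directly. It was -0.72 log2 for Per1 (SE 0.23), -0.88 log2 for Cry1 (SE 0.37), -0.41 log2 for Tef (SE 0.31), -0.39 log2 for Nr1d1 (SE 0.47), 0.12 log2 for Dbp (SE 0.25), 0.06 log2 for Tsc22d3 (SE 0.30) and -0.01 log2 for Fkbp5 (SE 0.17). Of all genes tested 0% met the call in edgeR (1512 at an unadjusted p under 0.05) and DESeq2 called 1. Among the 41 companion genes 11 were at an unadjusted p under 0.05, and the smallest adjusted p was 0.207. Without NZB resting replicates 5 and 6 the difference was -0.01 log2 for Cry1 and -0.64 log2 for Per1.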

How the data were processed

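RNA of 24 Tconv libraries, 6 per haplotype and state, was measured, with groups taken from the sample labels. According to the study's methods, the authors trimmed reads with cutadapt, dropped those under 30 bases, mapped them with STAR to the last 1000 bases of 3′ UTR regions of GRCm39 (Ensembl 106), counted genes with htseq-count, removed UMI duplicates and corrected for saturation. The deposited counts are whole UMI counts, not scaled to library size. A second deposited table of larger counts served as an alternative, and 1 column of it that matched no sample was not used. RNA input and kit differ between labels and methods.

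Analysis used R 4.3.3, edgeR 4.0.16, limma 3.58.1, DESeq2 1.42.0 and Python 3.11.15. TMM scaling and filterByExpr preceded edgeR's quasi-likelihood test of 4 groups in 1 fit, with Benjamini-Hochberg adjustment over 10566 genes and calls at an adjusted p of at most 0.05. A standard error is the log2 difference over the square root of F. The members and lists were chosen with earlier results of these data known. Named are all 10 members, the 3 largest called companions per list and activation comparison, companions called elsewhere, and Nr3c1, Bmal1, Clock and Cry2. Dusp1 and Txnip in NZB resting replicates 5 and 6 were named after their values were seen. The scripts were tested on simulated data. Pairs of libraries of a group differed beyond sampling noise (a chi-square statistic over its degrees of freedom of 2.77 or more). The labels do not say whether libraries of a group came from separate mice, so p-values measure the spread between libraries. Alternatives were 11 planned settings, leaving out each library, and 2 settings added after seeing the data.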

Additional observations from a re-analysis of the deposited data

Results flagged for a closer look

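Among 100 groups of 6 libraries (the 10 genes and the named companions by group), 9 held a library far from the others by Dixon's test. Its chance rate of about 1 in 20 groups assumes normal values of equal precision. Values from few UMIs are not of that kind, so the 9 cannot be read against that rate. For 4 of the 10 genes this was a value from few molecules. Per2 in B6 activated replicate 3 was at 0.991 CPM (3 UMIs) with the nearest library at 0.512. Per3 in NZB resting replicate 2 was at 16.9 CPM (1 UMI) with the nearest at 6.42. Nr1d1 in NZB activated replicate 3 was at 2.29 CPM (7 UMIs) with the nearest at 1.63, and Nr1d2 in NZB activated replicate 6 was at 0.44 CPM (3 UMIs) with all others at 0.

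Of the companions, Dusp1 and Rgs2 were both highest in B6 activated replicate 5, at 33.5 and 5.89 CPM, with the nearest library at 18.0 and 2.12 CPM. Usp2 was at 4.79 CPM in NZB activated replicate 4 (nearest 2.88) and Cebpd at 2.88 CPM in NZB activated replicate 1 (2 UMIs, nearest 0.871). Rgs2 was at 186 CPM in NZB resting replicate 2 (11 UMIs, nearest 104).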

How the results depend on the processing

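The activation differences of Per1, Nr1d1, Tsc22d3 and Fkbp5 kept their direction in both haplotypes under all settings in which they were fitted. With a log2 difference of at least 1 also asked for, activation called 1868 genes with mtDNA B6 (746 higher, 1122 lower), 16 of them companions, and 2474 with mtDNA NZB (1000 higher, 1474 lower). The haplotype call at rest (292 genes, 4 companions) depended on the processing. It came to 180 and 2 with DESeq2, 43 and 0 with the second table, 0 and 0 with only the 2 groups fitted (1644 at an unadjusted p under 0.05), 1 and 0 with the sets of reads per UMI as a term, and 107 genes with the added fold limit. Companions were 2 with median-of-ratios factors and 2 without a filter. It came to 662 genes (242 higher, 420 lower) without NZB resting replicates 2 and 6 and NZB activated replicate 6, and to 123 (7 higher, 116 lower) without NZB resting replicates 5 and 6. The response difference called 1 gene with DESeq2 and 113 without the former 3 libraries. Leaving out 1 library gave 0 to 587 genes and 0 to 7 companions at rest, 0 to 1 after activation and 0 to 1 for the response difference. At rest 0 to 27 remained without B6 resting replicate 1, 3, 4 or 5 or NZB resting replicate 5, 175 to 194 without B6 resting replicate 6 or B6 activated replicate 2, 3, 4 or 5, and 478 to 587 without NZB resting replicate 1, 3, 4 or 6. The cause of these shifts was not tested. On activation with mtDNA NZB, Hsp90aa1 (0.092 log2) and Bcl2l11 (0.81 log2) reversed without NZB resting replicates 5 and 6, and Hsp90aa1 was also not called with DESeq2, either block, the 3 libraries left out or either of those 2 replicates left out (adjusted p 0.0651 to 0.411). Wee1 with mtDNA NZB was not called with the second table or the block by label number (adjusted p = 0.0703 and 0.0549), nor Usp2 and Hsp90aa1 with mtDNA B6 with the sets as a term (adjusted p = 0.0537 and 0.126). Same-numbered resting and activated libraries did not deviate together (9 pairs by label number, correlations -0.21 to 0.3, 3 of them over 0.1), so the numbers were not taken as pairs. With a replicate block by label number activation called 4291 (B6) and 4136 (NZB) genes, by title number 4607 and 5020, and the response difference called 0 with either block. A block by title number across haplotypes left 72 genes and 0 companions at rest and 0 after activation. Blocks within a haplotype cannot serve the haplotype comparisons. Depth limits Per2, Per3 and Nr1d2, with 3 to 58 UMIs per group.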
